A study of Mus musculus with 5 samples.

Results

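The miR-297, miR-466, miR-467 and miR-669 miRNAs form a rodent family that arose from a repeat of alternating bases and lies mainly in an intron of Sfmbt2. Every mouse miRNA on the array whose name holds one of these 4 numbers was taken, which gave 61 of 1122 mouse miRNAs (3 of miR-297, 23 of miR-466, 12 of miR-467 and 23 of miR-669). The study asked which miRNAs differ in dendritic cells after contact with flagellin, the bacterial protein that TLR5 recognizes. Bone marrow of C3H/HeJ mice was cultured with rmGM-CSF and rmIL-4 to give bone marrow-derived dendritic cells (BMDCs), and CD11c+ cells were sorted with magnetic beads. Total RNA was hybridized to 1-colour Agilent miRNA arrays, 3 from BMDCs stimulated with flagellin (FliC) at 100 ng/mL for 24 h and 2 from BMDCs kept for 24 h in medium alone (mock). Both groups are of the C3H/HeJ strain, which carries a mutation in Tlr4, so both lack normal TLR4 signalling. The labels do not say whether the arrays of a group came from separate cultures or mice, so p-values measure only the spread between these arrays, which may be technical.

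miRNAs repress target mRNAs through pairing with their seed, the stretch near the 5′ end. Sfmbt2 encodes a polycomb group protein and is an imprinted gene expressed from the paternal allele, most strongly in extraembryonic tissue, and the miRNA hairpins in its intron are many near copies of each other. In macrophages, miR-466l has been described to bind the AU-rich element of Il10 mRNA.

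For each miRNA the deposited files give a total gene signal, the sum over its probes whose signal exceeds 3 times their error. A miRNA without such a probe is undetected and is listed at 0.1. For the family this rule gave the deposited value in 305 of 305 pairs of member and array (relative tolerance 0.001). All 5 arrays lay on 1 slide. FliC replicates 1 and 2 were in array column 2, FliC replicate 3 in column 3 and both mock arrays in column 4, so column and treatment cannot be told apart. The 75th percentile of signal among the 277 mouse miRNAs detected on all 5 arrays was 281, 293 and 211 on FliC replicates 1, 2 and 3 and 282 and 246 on mock replicates 1 and 2, so FliC replicate 3 was the dimmest array. Signals were divided by this percentile and are called scaled signals below.

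Of 6 myeloid and haematopoietic miRNAs, 6 were detected on every array, with a summed scaled signal of 143, 142 and 124 on the FliC arrays and 132 and 130 on the mock arrays. The signal of miR-21-5p made up most of this sum. FliC replicate 2 stood apart by miRNAs of other cell types. The stromal miR-199a-3p had a signal of 5.58 and 41.3 on FliC replicates 1 and 2 and 5.59 on mock replicate 1, and was undetected on the remaining arrays. The erythroid miR-451 had 5.29 and 17.0 on FliC replicates 1 and 2 and was undetected elsewhere, and the endothelial miR-126-3p had 12.6, 29.1 and 5.60 on the FliC arrays and 12.5 and 5.04 on the mock arrays. Summed scaled signals of the 5 stromal miRNAs were 0.0199, 0.181 and 0 with FliC and 0.0198 and 0 with mock, and those of the 3 erythroid miRNAs were 0.0188, 0.0579 and 0 with FliC and 0 on both mock arrays. The lymphoid miR-150-5p, the erythroid miR-144-3p and miR-144-5p, the stromal miR-143-3p, miR-145-5p and miR-214-3p and the endothelial miR-126-5p were undetected on all 5 arrays. The sort for CD11c, made before the 24 h of stimulation, would remove most cells without CD11c, but not necessarily all. The part of such cells in the values below was not tested, and in RNA pooled from many sorted cells fewer cells of a type and less RNA per cell cannot be told apart.

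Mature sequences from RefSeq (GRCm38.p6) matched 7 of the 61 members by name. They are shown because they hold both forms of the repeat that the probes read, with the seed (bases 2 to 8) in capitals.
miR-466i-3p: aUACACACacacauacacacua
miR-466q: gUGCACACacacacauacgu
miR-467f: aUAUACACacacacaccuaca
miR-467g: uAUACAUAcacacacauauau
miR-466j: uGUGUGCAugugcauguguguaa
miR-466k: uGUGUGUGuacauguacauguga
miR-669n: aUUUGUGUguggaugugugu
These 7 miRNAs have 7 different seeds. In miR-466i-3p, miR-466q, miR-467f and miR-467g, C and A alternate over 11, 12, 12 and 9 bases, and in miR-466j, miR-466k and miR-669n, U and G alternate over 7, 9 and 8 bases. They lie at chr13:17747552-17747573 (+) for miR-466i-3p, chr3:28419988-28420007 (+) for miR-466q, chr11:69635419-69635439 (-) for miR-467f, chr5:34732872-34732892 (-) for miR-467g, chr10:60960802-60960824 (+) for miR-466j, chr3:85467396-85467418 (+) for miR-466k and chr3:115979905-115979924 (+) for miR-669n. By name in the RefSeq annotation, their hairpins lie within Cdk13, Tnik, Fxr2, Grk4, no gene, Gm31419 and Slc30a7, in the same order.

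The array reads the family through 162 probes of 13 to 23 nt, which are DNA and complementary to the miRNA. The brightest probe of several members is shown because the members are grouped below by the repeat in it. Capitals mark the longest run of alternating T and G or of alternating C and A.
miR-466i-5p: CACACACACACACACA
miR-669n: acacacatcCACACACAa
miR-669l-5p: acatatacatgCACACAC
miR-466i-3p: tagtgtgtaTGTGTGTGTG
miR-466h-3p: GTGTGTGTGTGcgt
miR-467f: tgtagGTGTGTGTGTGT
miR-466q: acgtaTGTGTGTGTGTG
miR-669f-3p: atacGTGTGTGTGTatgt
miR-467b-5p: catatACAtgcaggcact
The probes of the first group, miR-466i-5p, miR-669n and miR-669l-5p, read UG-repeat RNA. Those of miR-466i-3p, miR-466h-3p, miR-467f, miR-466q and miR-669f-3p read CA-repeat RNA, and that of miR-467b-5p holds no long run. The probes covered mainly the 3′ part of the miRNA. Set against the mature sequences, they read bases 4 to 22 of miR-466i-3p with 5 of the 7 seed bases, bases 6 to 23 of miR-466j with 3, bases 5 to 21 of miR-467f with 4, bases 3 to 20 of miR-669n with 6 and bases 1 to 21 of miR-467g with 7.

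Because the members are near copies, their probes were not independent. In 54 of 61 members a probe shared a stretch of at least 11 nt with a probe of another member, over 155 pairs of members, and miR-467g had the most such partners, 14. For 11 members the files list a further miRNA with the same probe, so their signal may come from any of the miRNAs listed. The probe set named miR-669b-5p is also listed for miR-297a-5p and miR-466f, that of miR-669l-5p for miR-467h and miR-669d-5p, that of miR-669f-3p for miR-669a-3p and miR-669o-3p, that of miR-297a-3p for miR-297b-3p and miR-297c-3p, and that of miR-669n for miR-669c-5p. Members are therefore described together and are not counted as replicates.

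The family was detected in part, and nearly the same members were detected with FliC and with mock. On FliC replicates 1, 2 and 3, 30, 31 and 31 of 61 members were detected, and on mock replicates 1 and 2, 35 and 32. Mouse miRNAs as a whole numbered 293, 298 and 292 on the FliC arrays and 317 and 301 on the mock arrays, so mock replicate 1 held the most detected miRNAs within and outside the family. On all 5 arrays, 30 members (49.2%) were detected, against 247 of 1061 other mouse miRNAs (23.3%). On none, 26 members were detected. By subfamily, the members detected on all 5 arrays were 2 of 3 for miR-297, 10 of 23 for miR-466, 7 of 12 for miR-467 and 11 of 23 for miR-669. These shares are a description without a test, since the members share sequence.

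The 5 members detected on some arrays only were all read through CA-repeat RNA. miR-466f-3p was detected on 4 arrays and missed on FliC replicate 1. miR-466i-3p was detected on both mock arrays only. miR-466g, miR-466q and miR-669p-3p were detected on mock replicate 1 only. A probe signal over 2 times its error in place of 3 gave 31 members on all 5 arrays, and 4 times gave 23.

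Detection differed between the arms of the hairpin. Of 25 members named 5p, 20 were detected on all 5 arrays (80%), whereas 103 of 436 other 5p miRNAs were (23.6%). Of 26 members named 3p, 7 were detected on all 5 arrays, and of 445 other 3p miRNAs, 99. The 7 were miR-297a-3p, miR-466b-3p, miR-466h-3p, miR-467a-3p, miR-467d-3p, miR-669a-3-3p and miR-669f-3p. The 5p members that no array detected were miR-297b-5p, miR-466d-5p, miR-466l-5p, miR-466n-5p and miR-467d-5p. Of 10 members without an arm in the name, miR-466j, miR-467f and miR-669n were detected on all 5 arrays. Neither miR-466l-5p nor miR-466l-3p, the miRNA described with Il10 mRNA, was detected.

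Detection also differed by the stretch of repeat that the probes read. The stretch searched was GUGUGUG or ACACACA in the RNA, which is CACACAC or TGTGTGT in the probe. Probes of 9 members read GUGUGUG, and 9 of these 9 were detected on all 5 arrays. Probes of 21 members read ACACACA, of which 7 passed on all 5 arrays and 9 stayed undetected throughout. Of the 31 members with neither stretch, 14 passed on all 5 arrays and 17 nowhere. No member had both. The 9 of 9 depended on the letters searched. With a run of at least 7 alternating C and A in either frame, a rule chosen after the values were seen, miR-466h-5p, miR-466j, miR-466l-5p and miR-466m-5p joined the 9, and 12 of these 13 members were detected on all 5 arrays, with miR-466l-5p detected on none. The 21 members with TGTGTGT were the same under this rule, and the remaining 27 comprised 11 present on all 5 arrays and 16 undetected throughout. miR-466k, whose mature sequence holds GUGUGUG but whose probes have no run of C and A over 5 nt, was also undetected. Over the 61 members, the number of arrays with detection had a Spearman correlation of 0.46 with the longest run of C and A in the probe and of −0.39 with the longest run of T and G. With the GC percent of the probes it was 0.38, and these features were not separated. These points share sequence, the arm goes with the repeat, and no p is given.

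**Figure D1:**
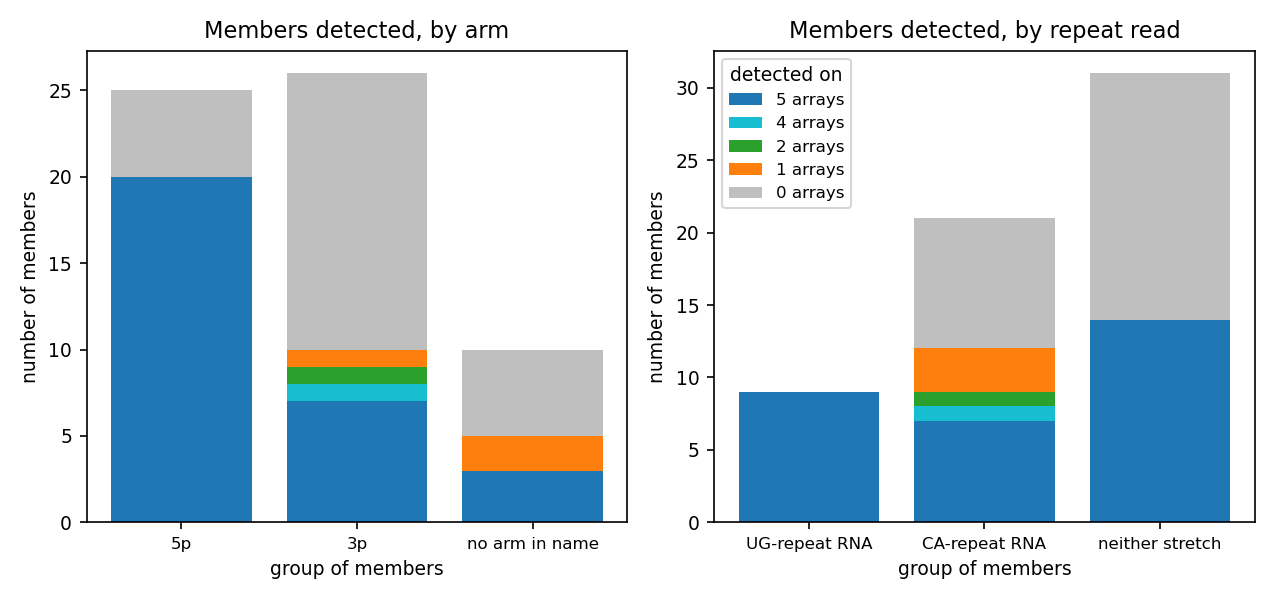
Number of family members (vertical axis) by arm on the left and by the repeat that their probes read on the right; colours give the number of arrays, of 5, on which a member was detected. 20 of 25 members named 5p and 9 of 9 members read through UG-repeat RNA were detected on all 5 arrays, against 7 of 26 named 3p and 7 of 21 read through CA-repeat RNA.

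Outside the family the probes hold only one form of the repeat. No mouse miRNA outside the family had a probe with TGTGTGT. Probes with CACACAC belonged to 7 other mouse miRNAs, and 14 of their 14 probes passed the detection rule on at least 1 array. Sorted by the mature sequence, 8 of the 874 other mouse miRNAs with a RefSeq sequence (of 1061) held a stretch. miR-1187, miR-206-3p, miR-3082-5p, miR-32-3p, miR-574-5p and miR-672-5p held GUGUGUG and were detected on all 5 arrays, and miR-3097-5p held it and was detected on 4. miR-672-3p, with ACACACA, was detected on none. Of the 7 that were tested for a difference between FliC and mock, limma's test gave 0 with a p under 0.05, before or after adjustment.

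RefSeq lists 81 hairpins of the family, 71 of them inside Sfmbt2 on chromosome 2. Of the 49 members whose hairpins all lie inside Sfmbt2, 23 were present on all 5 arrays and 24 undetected throughout. Of the 8 with hairpins elsewhere only, these numbers were 4 and 2, and of the 3 with hairpins in both places, 2 and 0. These places follow the name of each member, not the positions of its probes. The probes of miR-669n, counted elsewhere, also map to chromosome 2 and are listed for miR-669c-5p. Those of miR-669b-5p and miR-669l-5p, counted inside Sfmbt2, also map to other chromosomes. The hairpin of miR-466a-5p was not matched by name. No test was made between these places.

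Signals of the detected members ran from near the detection limit to above the 75th percentile. The 8 members with the highest mean scaled signal are given on every array. Signals of different probes do not rank miRNAs by amount, so this order has no meaning beyond naming them. miR-466i-5p had 10.2, 10.8 and 12.1 on FliC replicates 1, 2 and 3 and 10.8 and 9.44 on mock replicates 1 and 2. The FliC and mock values overlapped. miR-669n had 0.956, 1.04 and 1.22 on the FliC arrays and 1.01 and 1.02 on the mock arrays, where FliC replicate 3 was the highest and FliC replicate 1 the lowest.

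Among members whose probes hold no long repeat, miR-467b-5p had scaled signals of 0.545, 0.486 and 0.479 with FliC and 0.457 and 0.481 with mock, and miR-467e-5p had 0.407, 0.367 and 0.340 with FliC and 0.369 and 0.377 with mock. miR-466b-3p had 0.379, 0.374 and 0.349 with FliC and 0.347 and 0.345 with mock, so all of its FliC values were above its mock values. In the other groups, miR-669l-5p, which reads UG-repeat RNA, had 0.364, 0.373 and 0.427 with FliC and 0.407 and 0.407 with mock.

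miR-669f-3p and miR-467a-3p, which read CA-repeat RNA, were lower on FliC replicate 3 than on the other FliC arrays. miR-669f-3p had scaled signals of 0.636, 0.628 and 0.557 with FliC and 0.543 and 0.565 with mock. miR-467a-3p had 0.529, 0.526 and 0.445 with FliC and 0.460 and 0.452 with mock. In both, the values of FliC replicate 3 fell among or below the mock values.

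**Figure D2:**
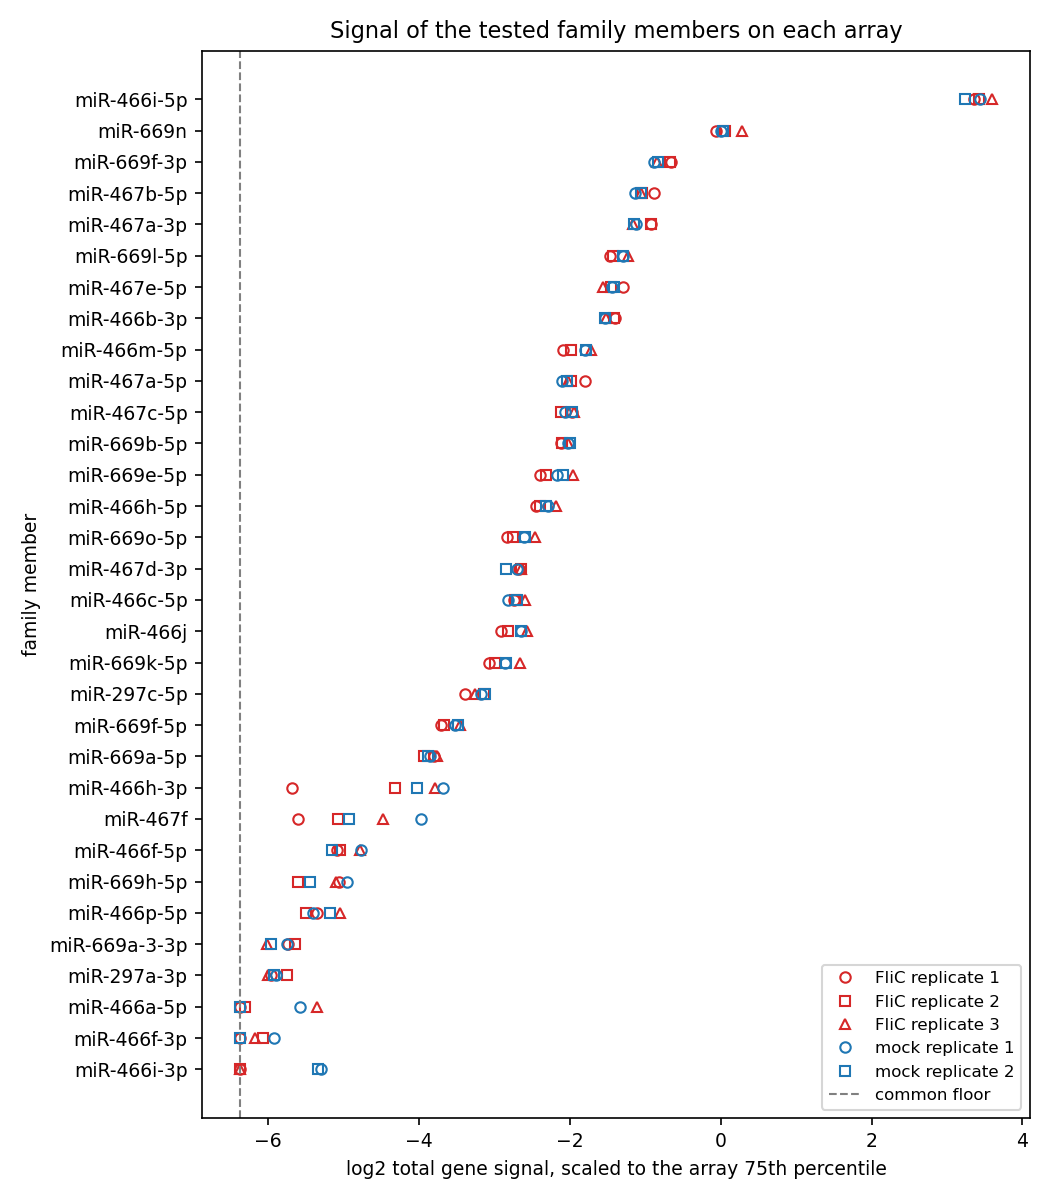
log2 scaled signal (horizontal axis) of the 32 members detected on at least 2 arrays, a line of points for each member, with FliC arrays in red and mock arrays in blue and the common floor as a dashed line. For most members the 5 points lie close together, and miR-466h-3p, miR-467f and miR-466i-3p spread the most; the order of members is not an order of amounts.

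The comparison of FliC with mock covered the 307 mouse miRNAs detected on at least 2 arrays, 32 of them members. Each array has a lowest scaled signal among its detected miRNAs, and the highest of these, 0.0121 (−6.37 on the log2 scale), served as a common floor for all values. After Benjamini-Hochberg adjustment over the 307, limma's p was under 0.05 for 1 of 32 members, miR-466i-3p, where 0.651% of the 307 passed. This member entered the 307 only through the mock arrays, and all of its FliC values were set to the floor, so the filter and the floor fixed its difference and the call is given as a description. The same member was the only 1 of 32 with an unadjusted p under 0.05, against 5.86% of the 307, so the count of members lay near the background. All FliC values lay below both mock values in 1 member, again miR-466i-3p (8.79% of the 307) and above both in 3, miR-467d-3p, miR-467a-5p and miR-466b-3p (11.4% of the 307). The count at an unadjusted p under 0.05 rested on FliC replicate 3: without it limma's test gave 9 members, 7 lower and 2 higher, beside 71 of the 307. With 3 and 2 arrays, an exact permutation test of a single miRNA cannot give a p below 0.1.

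Most members differed little between the groups. The log2 difference (FliC minus mock) was negative in 19 members and positive in 13 with a median of −0.03, against 0.01 over the 307. Scaling to the 75th percentile over all mouse miRNAs, which moved the median of the 307 to 0.19, turned this to 3 negative and 29 positive with a median of 0.15, and quantile normalization gave 14 and 18. Relative to the median of the 307, the members' median was −0.04 with both percentiles and 0.03 with quantile normalization. Differences lay within 0.15 of 0 for 29 of the 32 members, beside 203 of the 307. The 30 members detected on all 5 arrays ranged from −0.74 to 0.14. Of the 9 tested members read through UG-repeat RNA (miR-466a-5p, miR-466c-5p, miR-466f-5p, miR-466i-5p, miR-466p-5p, miR-669e-5p, miR-669l-5p, miR-669n and miR-669o-5p), 6 were negative and 3 positive, between −0.09 and 0.13. Of the 14 with neither stretch (miR-297c-5p, miR-466b-3p, miR-466h-5p, miR-466j, miR-466m-5p, miR-467a-5p, miR-467b-5p, miR-467c-5p, miR-467e-5p, miR-669a-5p, miR-669b-5p, miR-669f-5p, miR-669h-5p and miR-669k-5p), 9 were negative and 5 positive, between −0.14 and 0.14; in the other frame, miR-466h-5p, miR-466j and miR-466m-5p of these hold a run of 7 alternating C and A. The 9 read through CA-repeat RNA (miR-297a-3p, miR-466f-3p, miR-466h-3p, miR-466i-3p, miR-467a-3p, miR-467d-3p, miR-467f, miR-669a-3-3p and miR-669f-3p) lay between −1.06 and 0.13. The −1.06 is that of miR-466i-3p, which the filter and the floor fixed. miR-466h-3p (−0.74) and miR-467f (−0.61) came next, and the rest of these lay between −0.06 and 0.13. By subfamily the medians were −0.05 for the 2 tested miR-297 members, −0.04 for 12 of miR-466, 0.10 for 7 of miR-467 and −0.06 for 11 of miR-669.

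The members with all FliC values above the mock values did not pass the test. miR-467a-5p had scaled signals of 0.288, 0.253 and 0.245 with FliC and 0.233 and 0.244 with mock, a log2 difference of 0.14 (SE 0.101). miR-467d-3p had 0.157, 0.160 and 0.160 with FliC and 0.155 and 0.139 with mock, a difference of 0.12 (SE 0.0807). For miR-466b-3p the difference was 0.08 (SE 0.0758). The adjusted p was 0.859 in limma's test for each of these 3, and without scaling 0 members, beside 4 of the 307, had all FliC values above both mock values.

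**Figure D3:**
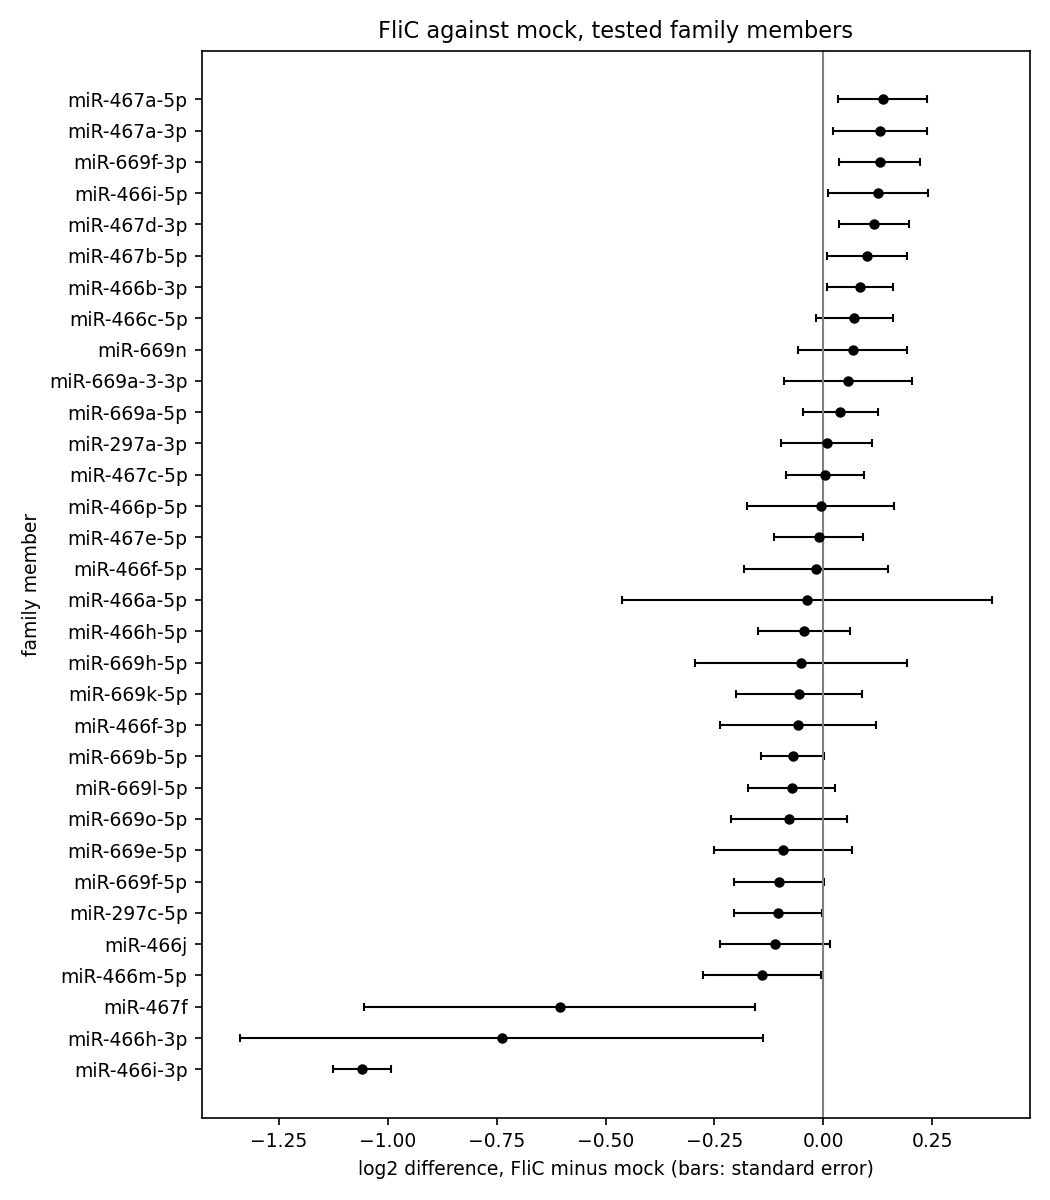
log2 difference of FliC minus mock (horizontal axis) for each of the 32 tested members, with the standard error from limma's fit as bars. The 30 members detected on all 5 arrays lie between −0.74 and 0.14, and miR-466i-3p, undetected on the FliC arrays, lies at −1.06 with a bar that reflects values held at the floor.

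The call of miR-466i-3p rested on detection by 1 probe. No measurement of it by another assay was used here. This probe, printed above, had a signal of 2.14, 4.94 and 4.72 on FliC replicates 1, 2 and 3 and of 7.20 and 6.11 on mock replicates 1 and 2. The limit of 3 errors was 4.92, 5.58 and 4.83 on the FliC arrays and 4.93 and 5.10 on the mock arrays, so the probe passed on both mock arrays and missed on all FliC arrays. Signal over error was 1.30, 2.65 and 2.93 with FliC and 4.38 and 3.59 with mock, and FliC replicate 3 missed the limit narrowly. The other probe of miR-466i-3p passed on no array.

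With the undetected values at the floor, the log2 difference of miR-466i-3p was −1.06 (SE 0.0662, adjusted p = 0.0106 in limma's test, lower in 3 of 3 FliC arrays). The 3 FliC values were equal at the floor and carry no spread, so this difference, its error and its p follow from the filter and the floor and support nothing on their own. The probe's scaled signals were 0.00761, 0.0169 and 0.0224 on the FliC arrays and 0.0255 and 0.0248 on the mock arrays, above the floor on FliC replicates 2 and 3. Without the detection rule the log2 difference was −0.77 (SE 0.320, adjusted p = 0.877 in limma's test). For the deciding probe, the ratio of mock to FliC was 1.28 with each FliC array at its limit of 3 errors. The mock signals enter this ratio without their errors, and the member was tested only through its mock values. It is therefore no lower bound. The ratio was 1.55 with the higher of the lowest detected signal and the probe's own and 1.77 with the signals as measured. Over the alternatives the log2 difference ran from −6.02 to −0.13 and the adjusted p from 3.91e-05 to 0.877. It was 0.104 in limma's test with the row of the array as a block, and leaving out FliC replicate 1, FliC replicate 2 or either mock array ended the call.

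Next in size were miR-466h-3p and miR-467f, whose probes also read CA-repeat RNA and which did not pass the test. miR-466h-3p had scaled signals of 0.0196, 0.0501 and 0.0726 with FliC and 0.0778 and 0.0614 with mock, a log2 difference of −0.74 (SE 0.601). miR-467f had 0.0206, 0.0297 and 0.0449 with FliC and 0.0637 and 0.0330 with mock, a difference of −0.61 (SE 0.449). In both, FliC replicate 1 was the lowest and mock replicate 1 the highest, and the groups overlapped. Their adjusted p was 0.859 in limma's test. The size depended on single arrays. The difference of miR-466h-3p was −0.20 without FliC replicate 1 and −1.14 without FliC replicate 3, and that of miR-467f was −0.33 without FliC replicate 1, −0.13 without mock replicate 1 and −1.08 without mock replicate 2. Part of this spread came from a further probe that passed on some arrays only. On the probe of each that passed on all 5 arrays, the differences were −0.48 and −0.31.

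miR-466f-3p and miR-466a-5p reached the floor of 0.0121 on some arrays. miR-466f-3p had scaled signals of 0.0150 and 0.0139 on FliC replicates 2 and 3 and 0.0166 and 0.0117 on the mock arrays, and was undetected on FliC replicate 1. miR-466a-5p, which reads UG-repeat RNA, had 0.0119, 0.0127 and 0.0245 with FliC and 0.0210 and 0.0113 with mock, highest on FliC replicate 3. Its 2 passing probes both counted on FliC replicate 3 and mock replicate 1, and only 1 did on each other array. The brightest probe had scaled signals of 0.0119, 0.0127 and 0.0120 with FliC and 0.0115 and 0.0101 with mock. The log2 differences of miR-466f-3p and miR-466a-5p were −0.06 (SE 0.179) and −0.04 (SE 0.425), smaller than their errors. That of miR-466f-3p depended on the floor. It was −1.14 (SE 1.28) with the floor divided by 10 and −0.62 (SE 0.710) with signals under 1 set to 1. With the authors' log2 values it was −1.72 (SE 1.95), and without the detection rule −0.53 (SE 0.290). Over the alternatives it ran from −1.72 to 0.17.

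Differences between arrays, within and across the groups, differed by the stretch read. This pattern was noticed after the values were seen and was not tested. In the members' log2 scaled signals, those read through UG-repeat RNA had their highest value on FliC replicate 3 in 8 of 9 members. Among these, miR-466a-5p had a further probe that passed on FliC replicate 3 but not on FliC replicates 1 and 2. The exception, miR-466f-5p, was highest on mock replicate 1, the only array on which a further probe of it passed. Its probe that passed on all 5 arrays was highest on FliC replicate 3 (scaled 0.0363, against 0.0282 on mock replicate 1). On that probe the log2 difference was 0.17, against −0.02 for the total gene signal. Their median deviation from the member's mean was −0.12, −0.08 and 0.19 on FliC replicates 1, 2 and 3 and 0.02 and 0.02 on the mock arrays. Members with neither stretch had −0.01, −0.08 and 0.08 with FliC and 0.03 and 0.03 with mock. With the run of at least 7 in either frame, the median on FliC replicate 3 was 0.18 in 12 members with a C and A run, of which 11 were highest there, and 0.03 in the 11 with no such run.

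The members' signals are sums over their probes, so single probes of members repeat this pattern and do not add to it. Probes outside the family showed it too. CACACAC probes came from 9 members and 7 other miRNAs in all. Probes of the same miRNA overlap in sequence and are not replicates. Of probes that passed on all 5 arrays, 12 of 12 CACACAC probes of members and 12 of 12 outside the family were highest on FliC replicate 3, with median log2 deviations of 0.20 and 0.21 there, against 0.04 for the 468 passing probes outside the family with neither stretch. Which array is the highest moves with the scaling, whereas the gap to the 468 does not, since a scaling factor shifts all probes of an array alike. On FliC replicate 3 this gap was 0.16 for the 12 member probes and 0.17 for the 12 outside the family. With the percentile over all mouse miRNAs, 10 of the 12 member probes and 8 of the 12 others were highest there. Without scaling 0 of either 12 were, nor were more than 7 of the 468, as FliC replicate 3 was the dimmest array. The 12 TGTGTGT probes of members that passed on all 5 arrays had 0.09, 0.09 and −0.08 on FliC replicates 1, 2 and 3 and −0.04 and −0.09 on the mock arrays. Among the 22 that passed on at least 1 array, 7 of them on mock replicate 1 only, the median on FliC replicate 3 was 0.24, so its sign depended on which probes were taken and no direction is read from it. The 12 were highest on FliC replicate 2 in 5 of 12 and on mock replicate 1 in 1 of 12.

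**Figure D4:**
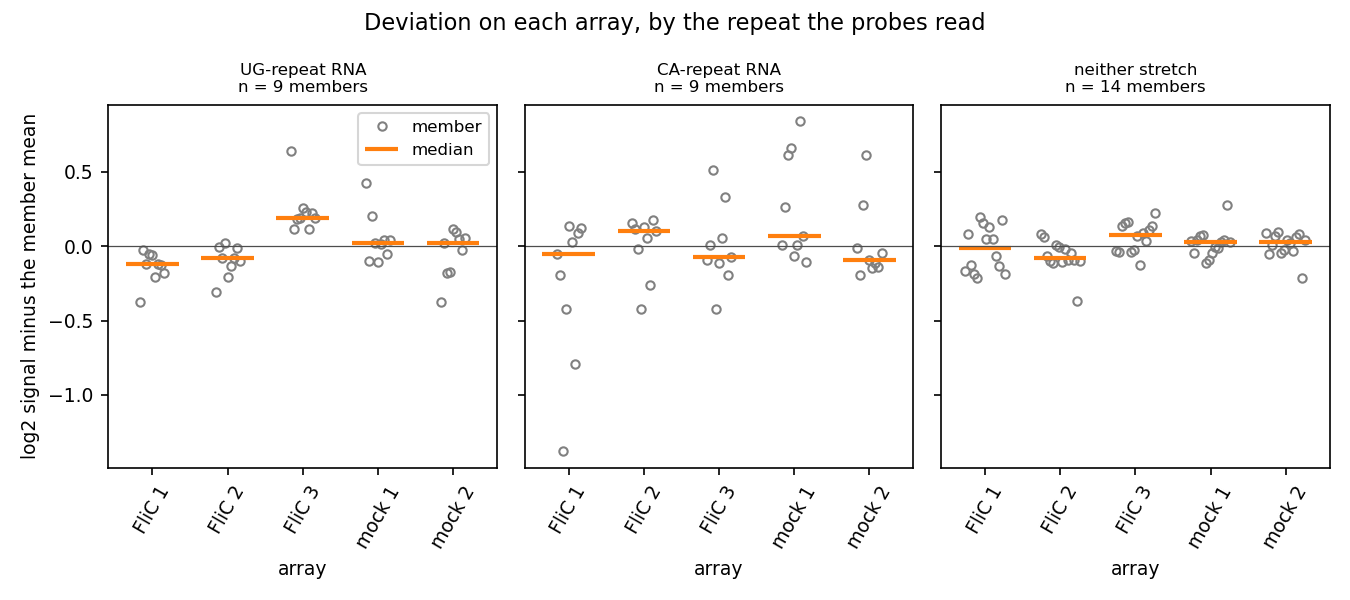
log2 scaled signal of each tested member on each array, minus that member's mean over the 5 arrays (vertical axis), in panels by the repeat that its probes read; circles are members and bars are medians. Of the 9 members read through UG-repeat RNA, 8 are highest on FliC 3 under this scaling, with a median of 0.19. miR-466f-5p is highest on mock 1, where a further probe of it passed. Without scaling 0 of the 12 CACACAC member probes are highest on FliC 3, the dimmest array, while their gap to the other probes there stays at 0.16. Some dim members read through CA-repeat RNA are far below their mean on FliC 1.

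Probes of a member mostly gave the same sign of difference. Of 20 members with at least 2 probes that passed on all 5 arrays, 18 had the same sign of FliC minus mock in every such probe. The exceptions were miR-467c-5p and miR-467e-5p, whose differences were near 0. Probes of a member differ in length only and read the same RNA, so their shared sign is no independent support. Over the 32 tested members, the range of a member's log2 signal over the arrays had a Spearman correlation of 0.48 with its longest run of alternating bases and of −0.50 with its mean mock level. The difference between FliC and mock had −0.11 with the longest run. These values describe members that share sequence and probes, and no p is given.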

How the data were processed

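miRNA was profiled in flagellin-stimulated BMDCs (3 arrays) and BMDCs in medium alone (2 arrays). RNA was labelled with Cy3, and the authors obtained the deposited intensity values from Feature Extraction 10.7.3.1, which subtracted background and applied no scaling between arrays. Detection and outlier flags of the deposited files (other values of 0 or 1) were used as given. A table of log2 values from GeneSpring, also deposited by the authors, equals log2 total gene signals minus a constant per array; the sources used here do not name that scaling.

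Total gene signals were scaled to each array's 75th percentile (277 mouse miRNAs that every array detected), set to at least the floor and log2 transformed. The 307 miRNAs detected on at least 2 arrays were tested in limma 3.58.1 (R 4.3.3; lmFit and eBayes, no covariates, 3 residual degrees of freedom), checked on simulated data. Tables and plots were made with matplotlib 3.10.9, scipy 1.17.1, pandas 2.3.3 and numpy 2.4.6 under Python 3.11.15. The methods' t-test was an alternative, as were other scalings, floors, filters, values, blocks and leaving out each array. All tested members were named, values per array were given for the 8 with the highest mean scaled signal and those with an unadjusted p under 0.05, and members detected on 1 array were named with it. miR-466h-3p, miR-467f, miR-467a-5p, miR-467d-3p, miR-466f-3p and miR-466a-5p received values per array after their values were seen. The members and lists were chosen with earlier results of these data known. The files give positions on mm9, so only RefSeq coordinates on GRCm38.p6 were printed. The number of arrays limits the precision.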

Additional observations from a re-analysis of the deposited data

How the results depend on the processing

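Of the 32 tested members, 9 kept the sign of their log2 difference under all alternatives that gave a value (up to 28 a member), miR-466i-3p and all members with a difference beyond 0.15 among them. Over 828 values of single members under the alternatives with a test, 718 kept their sign and their side of an adjusted p of 0.05, 95 changed sign, 15 lost the call and 0 gained one, in limma's test or the methods' t-test. Of 64 further values within array rows, which have no test, 9 changed sign. The 15 were all of miR-466i-3p, which stayed lower with FliC. It was tested only through its mock values, so its constant sign gives no support.

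The count of members with an adjusted p under 0.05, which was 1, fell to 0 with all mouse miRNAs in the 75th percentile, without scaling, with quantile normalization, with only miRNAs detected on all 5 arrays (miR-466i-3p is then not tested), at probe level with processed signals or with normexp and quantile normalization, without the detection rule, and with array row as a block; limma's test gave 2, 1, 1, 0, 1, 0, 1 and 1 members with an unadjusted p under 0.05 in these settings, beside 14, 8, 17, 16, 40, 42, 17 and 15 of all tested (277 with only miRNAs detected on all 5 arrays, 596 probes at probe level, otherwise 307). Without the detection rule the 1 member was miR-297a-3p, higher with FliC (0.357, unadjusted p = 0.0156 in limma's test), against 0.007 as reported. With all mouse miRNAs in the percentile, miR-466i-5p was higher with FliC (0.307, unadjusted p = 0.0335 in limma's test), beside miR-466i-3p. The causes were not tested. The count at an adjusted p under 0.05 stayed at 1 with either lower floor (beside 4 of all tested), without a filter (1 of 1122) and with the authors' log2 values (4). It also stayed at 1 in the methods' t-test (2), with limma's trend option (1) and with array column as a random block (1). In each, the 1 member was miR-466i-3p, undetected on all FliC arrays, so these settings give no further support. Column and treatment cannot be told apart, so the random block does not account for a column effect. Members with all FliC values below both mock values, 1 as reported, numbered 3 with quantile normalization (28 of 307 tested), 0 with only miRNAs detected on all 5 arrays (19 of 277), 2 with processed probe signals (49 of 596 probes) and 2 with the authors' values (30 of 307). Those above, 3 as reported, numbered 6 with the percentile over all mouse miRNAs (44 of 307), 0 without scaling (4), 5 with quantile normalization (27) and 0 with the authors' values (31). The median difference was 0.15 with the percentile over all mouse miRNAs, when that of all tested miRNAs was 0.19. A shared stretch of 9 nt gave 324 pairs of members and of 13 nt gave 64.

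With the replicate number as a block, 0 members had an adjusted p under 0.05 (0 of the 307) and 1 an unadjusted one (39 of the 307), and miR-467c-5p (−0.027), miR-467e-5p (0.050) and miR-669n (−0.028) changed sign. Only replicates 1 and 2 occur in both groups. The deviations of same-numbered arrays from their group means correlated at 0.05 and 0.01. With 2 mock arrays, these deviations are mirror images of each other, so the correlations cannot decide whether arrays were paired. The labels give only a number.

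Leaving out an array keeps the scaled values, the floor and the 307 miRNAs. This was also run with scaling, floor and filter recomputed on the 4 arrays left; that version had been used at first, and the choice between them was made after both the data and its counts were seen. A mock array left alone is assumed to vary like the FliC arrays. Over both versions the count at an adjusted p under 0.05 ran from 0 to 1. It was 1 without FliC replicate 3 on the values kept (1 of all 307), and 0 without each of the other arrays or with values recomputed (0 of all tested in each). At an unadjusted p under 0.05 the count ran from 0 to 9. It was 9 without FliC replicate 3, beside 71 of the 307 (7 when recomputed, beside 58 of 307 tested), and 1 without each other array on the values kept, beside 11 and 16 of the 307 without FliC replicates 1 and 2 and 7 and 16 without mock replicates 1 and 2. When recomputed it was 1 without FliC replicates 1 and 2 (12 of 303 and 16 of 305 tested) and 0 without either mock array (4 of 299 and 13 of 303), as miR-466i-3p is then not tested. Members with all FliC values below the mock values ran from 2 to 14 and those above from 0 to 7, where fewer arrays make separation easier. Without FliC replicates 1, 2 and 3 and mock replicates 1 and 2, those below numbered 2, 3, 12, 3 and 6 (recomputed 4, 4, 14, 2 and 6), beside 39, 39, 88, 45 and 56 of the 307 (recomputed 54, 44, 95, 42 and 63 of 303, 305, 307, 299 and 303), and those above 4, 5, 7, 5 and 6 (recomputed 0, 3, 5, 5 and 5), beside 42, 63, 81, 49 and 70 of the 307 (recomputed 24, 54, 62, 49 and 53). The median ran from −0.13 (without FliC replicate 3, recomputed) to 0.022. Differences that changed sign ran from −0.087 to 0.057 for miR-297a-3p, −0.47 to 0.36 for miR-466a-5p, −0.00027 to 0.13 for miR-466c-5p, −0.32 to 0.17 for miR-466f-3p, −0.23 to 0.17 for miR-466f-5p, −0.15 to 0.0091 for miR-466h-5p, −0.16 to 0.10 for miR-466p-5p, −0.057 to 0.058 for miR-467c-5p, −0.12 to 0.050 for miR-467e-5p, −0.073 to 0.16 for miR-669a-3-3p, −0.024 to 0.093 for miR-669a-5p, −0.32 to 0.20 for miR-669h-5p, −0.21 to 0.026 for miR-669k-5p and −0.055 to 0.15 for miR-669n.

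Other changes of sign were of small differences. When all mouse miRNAs entered the 75th percentile, these values turned positive: miR-297c-5p 0.076, miR-466a-5p 0.11, miR-466f-3p 0.066, miR-466f-5p 0.16, miR-466h-5p 0.14, miR-466j 0.070, miR-466m-5p 0.040, miR-466p-5p 0.17, miR-467e-5p 0.17, miR-669b-5p 0.11, miR-669e-5p 0.088, miR-669f-5p 0.079, miR-669h-5p 0.13, miR-669k-5p 0.12, miR-669l-5p 0.11 and miR-669o-5p 0.10. With quantile normalization they were miR-466a-5p 0.11, miR-466f-3p 0.16, miR-466f-5p 0.13, miR-466p-5p 0.15 and miR-669h-5p 0.091, and without scaling miR-297a-3p −0.018 and miR-467c-5p −0.021. miR-466a-5p turned to 0.0028 with either lower floor and to 0.0093 with the authors' values. With processed probe signals, miR-466a-5p was 0.098, miR-466f-5p 0.18, miR-466p-5p 0.0091 and miR-467e-5p 0.016, and with normexp, miR-466a-5p was 0.033, miR-466f-5p 0.086, miR-466p-5p 0.0018, miR-467c-5p −0.0080 and miR-669k-5p 0.0055. Without the detection rule, miR-466f-5p was 0.039 and miR-669a-3-3p −0.061. With array row as a block, miR-467c-5p was −0.017, and with the column of the array as a random block, miR-297a-3p was −0.0039, miR-466a-5p 0.038, miR-466f-5p 0.0045 and miR-466p-5p 0.023. Within array row 1, miR-297a-3p was −0.059, miR-466a-5p 0.51, miR-466f-3p 0.10, miR-466f-5p 0.21 and miR-669h-5p 0.37, and within row 2, miR-297c-5p was 0.042, miR-466i-5p −0.0015, miR-467c-5p −0.056 and miR-669a-5p −0.079.

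Signal near the detection limit, shared probe sequence, 1 slide and 3 and 2 arrays limit these values.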
